A study of Mus musculus with 384 samples.

Results

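*Rps12*, *Rps25* and *Abcf1* are 3 genes of cytosolic translation among the 69 assays measured by TruSeq Targeted RNA sequencing in 12 brain region labels of 32 male Balb/c mice. The 3 genes were chosen by the symbol in the first column of the table of values, and all 3 had a value in each of the 380 samples with data, out of 384 samples in the labels. The labels gave 4 groups of 8 mice, named by a status (MS or Co) and an injection (naive or inject), and every sample carried the same age, postnatal day 9, although the study describes brains of adult mice. The study raised male pups with limited nesting and bedding material or with early handling, and later exposed the adult males to chronic social defeat or to housing with an ovariectomized female. Neither source pairs these exposures with MS, Co, naive and inject, so the groups are named here only as in the labels, and no difference below can be assigned to an exposure. Region labels were AMY (amygdala), BNST (bed nucleus of the stria terminalis), CER (cerebellum), PFC (prefrontal cortex), PVN (paraventricular nucleus), Pit, and the dorsal (d) and ventral (v) CA1, CA3 and DG (dentate gyrus) of the hippocampus. The labels do not spell out Pit, and the study's list of regions has the nucleus accumbens in its place. RNA came from micropunches, that is from all cells of a small piece of tissue, so a smaller number of cells of a type and less RNA per cell cannot be told apart.

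Translation starts when the small ribosomal subunit, together with initiation factors, is loaded onto a messenger RNA and finds the start codon. *Rps12* and *Rps25* encode proteins of this small subunit. Rps25 is known for its part in initiation at internal ribosome entry sites, and Rps12 for its role in cell competition in flies. *Abcf1* encodes an ATP-binding cassette protein that does not span membranes, binds initiation factor eIF2 and ribosomes, and promotes initiation. Messenger RNAs of ribosomal proteins typically begin with a tract of pyrimidines (C and T), the terminal oligopyrimidine motif, through which their translation is controlled together, and the start sites of the 3 genes are shown to let this feature be compared.

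The windows below are from RefSeq (GRCm38.p6) and hold the 40 bases before and the 20 bases from the annotated start, with the longest unbroken run of C and T in capitals. They lie at chr10:23787190-23787249 on the minus strand for *Rps12*, chr9:44407674-44407733 on the plus strand for *Rps25* and chr17:35969731-35969790 on the minus strand for *Abcf1*.
Rps12: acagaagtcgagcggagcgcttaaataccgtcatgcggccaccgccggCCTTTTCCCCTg
Rps25: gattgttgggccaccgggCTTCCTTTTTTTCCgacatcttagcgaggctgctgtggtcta
Abcf1: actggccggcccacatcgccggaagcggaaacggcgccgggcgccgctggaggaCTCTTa
The run had 11 bases in *Rps12*, beginning 9 bases into the transcript as annotated, and 14 bases in *Rps25*, beginning 22 bases before the annotated start. It had 5 bases in *Abcf1*. Runs were counted where they overlapped the 20 bases on either side of the annotated start. A run at least as long stood there on the coding strand in 7.81% of 32851 promoters for *Rps12*, 3.36% for *Rps25* and 63.5% for *Abcf1*. The match of letters is a description of these windows and does not show where transcription began in these mice.

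The assays are named for the transcripts NM_011295 (*Rps12*), NM_024266 (*Rps25*) and NM_013854 (*Abcf1*). In GRCm38, the GENCODE genes span chr10:23785183-23787275 for *Rps12*, chr9:44407139-44410427 for *Rps25* and chr17:35956819-35969761 for *Abcf1*. The RefSeq starts of the windows above lie inside these spans, so the annotations differ in where the genes begin. The 3 genes differ in how much of their sequence recurs in other genes. The windows of 50 bases were taken from the longest GENCODE transcript matched to each NM identifier. Of those of *Rps12*, 445 of 535 (83.2%) were found in a transcript of at least 1 of 23 other genes. The share was 323 of 1231 (26.2%) for *Rps25*, with 8 other genes, and 79 of 3112 (2.54%) for *Abcf1*, with 2 other genes. RefSeq lists 23 pseudogenes named for *Rps12*, 1 for *Rps25* and 0 for *Abcf1*. The position of each amplicon within its transcript is not given in the sources used here, so reads from such copies cannot be told apart from those of the gene, and the values of *Rps12* carry this uncertainty most.

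A value is the number of reads of an assay divided by the size factor of the library. *Rps12* and *Rps25* were deeply covered and *Abcf1* was not. *Rps12* received 1892 to 72003 reads per sample (median 15949), or 7.03 to 39.1% of a library. *Rps25* received 448 to 21977 reads (median 5361), or 1.66 to 9.67% of a library. *Abcf1* received 0 to 495 reads (median 125) and at most 0.304% of a library. Reads of an assay also depend on its primers, so values are compared below between samples of 1 gene and not between genes. Library totals ran from 12898 to 261007 reads, with a median of 139846. *Abcf1* had 0 reads in 4 samples and fewer than 20 in 13. The 4 samples at 0 were vCA1 MS inject 99, PVN MS inject 85, PVN MS naive 105 and PFC Co naive 239, where the number after the label group is the mouse. A count of 0 allowed values of up to 27.8 in the first, which had the fewest reads, and of up to 5.41, 5.04 and 4.66 in the others, if 3 reads are taken as the limit and only counting error is considered.

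Some libraries did not fall in 1 range within their region label, and this touches every result below that includes their labels. *Anxa2*, the gene of a calcium-dependent membrane-binding protein, lay at 1901 to 21258 in 31 samples labelled Pit (16), dDG (8) or vDG (7) and at 70.2 to 298 in the other 64 samples of these labels. *Ociad2* lay at 1750 to 3780 in 64 samples labelled CER (24), dCA3 (24) or vCA3 (16) and at 392 to 843 in the other 32. These upper and lower ranges were set at values of 1000 for *Anxa2* and 1200 for *Ociad2* and are not groups of the study. They were spread evenly over the 4 label groups. By the study's methods, each column of a library plate held 2 samples of each of its 4 groups. A range shared by whole columns would thus also be even over groups. The labels do not give plate positions, so this was not tested. Each label group had 4 upper and 4 lower samples in Pit and vCA3, 6 upper and 2 lower in CER and dCA3, and 2 upper and 6 lower in dDG and vDG, except that the 1 upper sample of vDG Co naive stood beside 6 lower ones, 1 sample of that group having no values. None of the 30 marker genes listed for neurons, glia and regions was among the 69 assays, so the region labels could not be checked by defining markers, and whether the ranges mark tissue, handling or library preparation was not tested. Whether all samples of these 6 labels came from the region on their label was not tested either, so their levels below describe samples by label.

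*Rps12* was highest in samples labelled Pit and lowest in those labelled vCA3. Its values in Pit ran from 13953 to 48750 with a median of 25207 (28725 ± 12308, SD, n = 32), and those in vCA3 from 9099 to 20725 with a median of 12806 (13527 ± 2747, n = 32). The widest spread was in Pit, dDG and vDG, with SDs of 0.64, 0.57 and 0.62 on the log2 scale, while PFC and PVN had SDs of 0.23. In dDG the values ran from 12249 through a median of 16565 to 43605, and in vDG from 10072 through 15537 to 42807. Medians of the remaining 8 labels lay between 14828 (AMY, 11107 to 24272) and 18147 (CER, 10019 to 21729). In the order of mean log2 values, vCA3 was followed by AMY, PFC, PVN, dCA3, dCA1, CER, vCA1, vDG, BNST, dDG and Pit. Of the 11 neighbouring steps in this order, only vCA3 to AMY and dDG to Pit passed the limma test with Benjamini-Hochberg adjustment over all assays and pairs (log2 difference 0.26 ± 0.10 SE, adjusted p = 0.0247, and 0.39 ± 0.10, adjusted p = 0.000517).

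*Rps25* had another order of labels. BNST, AMY, PFC and Pit formed the upper end, with medians of 6514 (4370 to 10241, n = 31), 6298 (5115 to 8478, n = 32), 6251 (4284 to 9502, n = 32) and 6179 (3271 to 11679, n = 32). Each of these 4 labels was higher than the 8 others by the test, and they did not pass the test among themselves. The lowest medians were 4375 in vDG (3235 to 8556), 4460 in dDG (3279 to 12518) and 4553 in vCA3 (2749 to 6045). Medians of the other labels lay between 4897 in PVN and 5323 in CER. The step from CER to PFC was the 1 of 11 neighbouring steps that passed (0.27 ± 0.09, adjusted p = 0.00523).

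*Abcf1* varied more between samples of 1 label than between labels. Its median was lowest in dCA1 at 88.0 (9.93 to 250, n = 32) and highest in Pit at 173 (89.3 to 349, n = 32). CER, at 88.8 (30.5 to 133), had the narrowest spread, with an SD of 0.51 on the log2 scale. PFC had the highest single value and also a sample at 0 (median 148, 0 to 440). None of the 11 neighbouring steps passed the limma test, and none had an unadjusted p under 0.05, although Pit was higher than 10 of the 11 other labels.

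**Figure D1:**
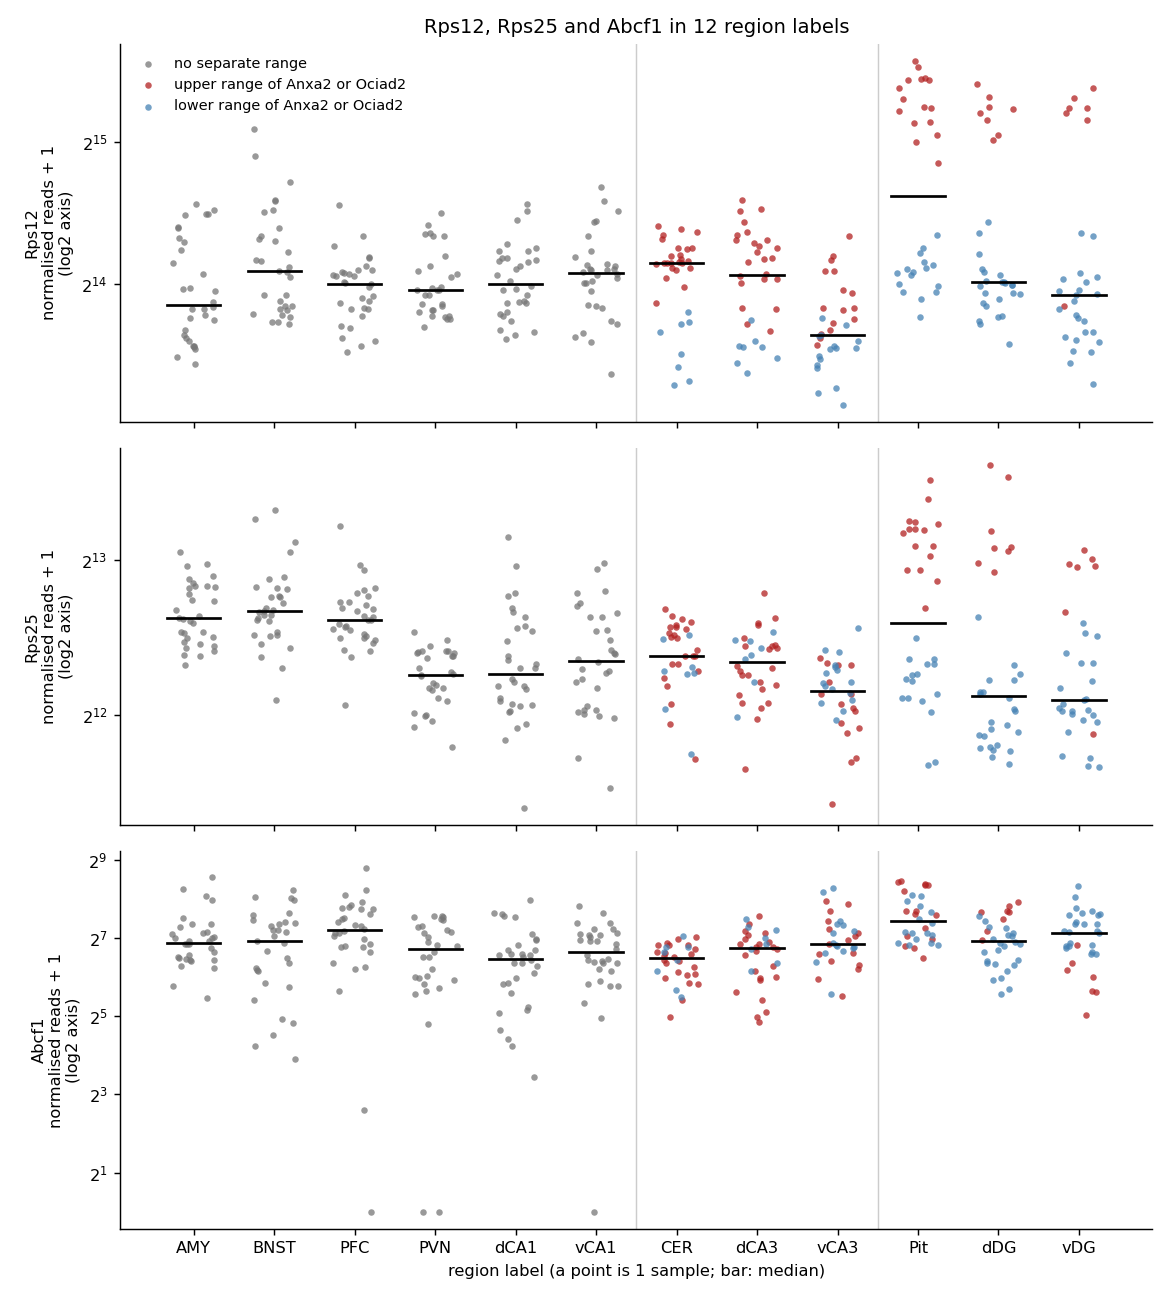
Normalised reads plus 1 (log2 axis) of *Rps12*, *Rps25* and *Abcf1* in every sample by region label, with the median as a bar and samples in the upper and lower range of *Anxa2* (Pit, dDG, vDG) or *Ociad2* (CER, dCA3, vCA3) in red and blue. The upper-range samples of Pit, dDG and vDG stand above the lower-range samples of these labels for *Rps12* and *Rps25*, except 1 vDG library, and 4 samples of *Abcf1* lie at 0.

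Over the 66 pairs of region labels, 28 differed in *Rps12*, 36 in *Rps25* and 25 in *Abcf1* (limma, adjusted p under 0.1), against 51.1% of all tests over the 69 assays, or a median of 35 pairs per assay. These counts moved with the settings. After rescaling to the same total, *Rps12* differed in 36 pairs, of which 21 were among the 28, beside 53.9% of all tests. Without the 31 samples with *Anxa2* over 1000 it differed in 21, of which 11 were among the 28, and 6 of the 28 differences turned in sign. *Rps25* then differed in 43, of which 30 were among the 36, and 5 of the 36 turned in sign, beside 46.3% of all tests. *Abcf1* differed in 17 pairs with a pseudocount of 0.1 (49.7% of all tests) and in 32 with one of 10 (52.0% of all tests). The median absolute log2 difference over the 66 pairs was 0.14 for *Rps12*, 0.22 for *Rps25* and 0.41 for *Abcf1*. Among the other translation genes in the table, *Rps2*, also of the small subunit, differed in 42 pairs, *Mrpl54* of the mitochondrial ribosome in 40, *Mknk2*, a kinase of the cap-binding factor, in 42 and the RNA-binding *Rbm4* in 30. Leaving out the 31 samples with *Anxa2* over 1000 changed which labels led. *Rps12* was higher in Pit than in 11 of 11 labels with all samples and in 2 without them. *Rps25* in Pit went from higher than 8 labels and lower than 0 to higher than 0 and lower than 5. For *Rps12*, vCA3 was lower than 11 labels, and than 10 without these samples. For *Rps25*, BNST was higher than 8 labels, and than 9 without them. No sample of vCA3 or BNST was among those left out, so their own values did not change. The range of *Ociad2* divides vCA3, and leaving out samples by it was not tested. Median *Rps12* in vCA3, dCA3 and CER was 11944, 12048 and 12300 in the lower *Ociad2* range. In the upper range it was 14587, 18940 and 18337.

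Within Pit, dDG and vDG, *Rps12* and *Rps25* were higher in the samples of the upper *Anxa2* range. *Rps12* lay between 29623 and 48750 in the 16 upper samples of Pit and between 13953 and 20790 in the 16 lower ones. In dDG the 8 upper samples lay between 33233 and 43605 and the 24 lower ones between 12249 and 22198. In vDG, 6 of the 7 upper samples exceeded all 24 lower ones, which reached 21004. Over the 3 labels, *Rps12* was 2.34 times as high in the upper range (log2 difference 1.23 ± 0.06 SE, 95% interval 1.12 to 1.34, adjusted p = 1.34e-37 by limma). *Rps25* had medians of 8624 in the upper range and 4321 in the lower range, a difference of 0.95 ± 0.06 (adjusted p = 3.09e-27). Of the 68 assays other than *Anxa2*, 57.4% were higher in the upper range, and the median difference over all assays was 0.26, or 0.14 when all samples were rescaled to the same total. Relative to this median, *Rps12* was higher by 0.97 with the deposited values and 0.95 after rescaling, and *Rps25* by 0.69 and 0.68. *Rps12* ranked at place 17 and *Rps25* at place 20 of 69 by size of the difference. *Rps2*, *Mrpl54*, *Mknk2* and *Rbm4*, 4 of 4 in the list of other translation genes, were also higher, by 0.84, 0.95, 0.46 and 0.74 on the log2 scale.

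A single library departed from this. The vDG MS inject sample of mouse 83 had the highest *Anxa2* value, 21258 (11.4% of its 159360 reads), against 1901 to 3885 in the other 30 upper samples. Its *Rps12* value of 14731 and its *Rps25* value of 3765 lay among the lower samples. Without it, 30 of 30 upper samples exceeded the 64 lower samples in both genes, and the differences were 1.28 for *Rps12* and 1.00 for *Rps25*.

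*Abcf1* did not move in 1 direction between these ranges. In dDG it was higher in the upper range (median 203, 123 to 242, n = 8) than in the lower range (median 107, 46.6 to 188, n = 24), by 0.89 ± 0.20 (adjusted p = 0.000190, limma). In vDG it was lower, with a median of 62.7 in the 7 upper samples (32.0 to 111) against 153 in the 24 lower ones (95.7 to 321), a difference of -1.31 ± 0.21 (adjusted p = 2.34e-06). In vDG, 6 of the 7 upper samples lay below all lower samples. In Pit the ranges overlapped, with 89.3 to 349 in the upper and 112 to 275 in the lower samples (0.30 ± 0.20, adjusted p = 0.176). Over the 3 labels together the difference was 0.03 ± 0.15 (adjusted p = 0.845), and it turned to -0.10 when all samples were rescaled to the same total. Relative to the median of all assays it was -0.23 with the deposited values and -0.24 after rescaling. The test of whether the difference varied between the 3 labels was passed by *Abcf1* (F = 27.1, adjusted p = 4.03e-08) and by no other of the 68 assays, with adjusted p = 0.988 for *Rps12* and 0.202 for *Rps25*.

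**Figure D2:**
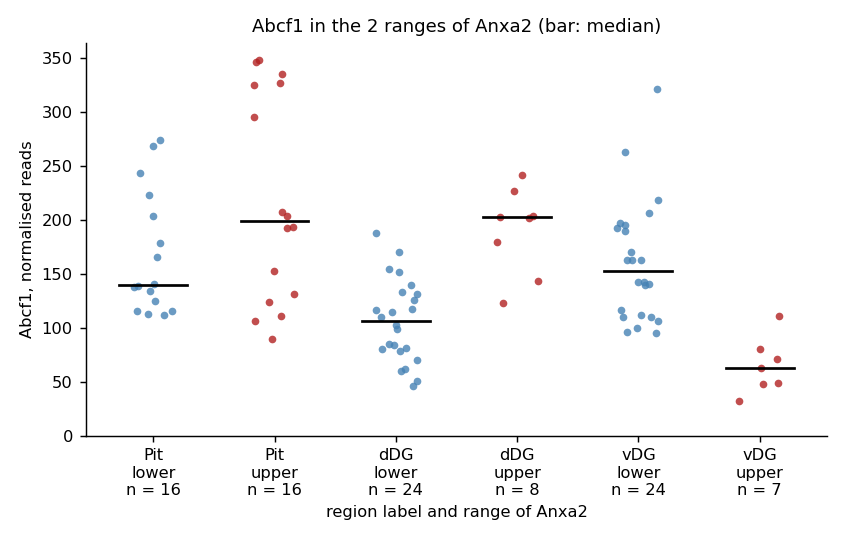
*Abcf1* values (normalised reads) of every sample of Pit, dDG and vDG by range of *Anxa2*, with the median as a bar. Upper samples are mostly above lower samples in dDG (medians 203 and 107) and below them in vDG (62.7 and 153).

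Within CER, dCA3 and vCA3, *Rps12* was higher in the samples of the upper *Ociad2* range and *Rps25* showed no such difference over the 3 labels. *Rps12* lay between 14953 and 21729 in the 24 upper samples of CER, all above the 8 lower samples (10019 to 14335). In dCA3, 22 of 24 upper samples exceeded all 8 lower ones, and in vCA3 10 of 16 exceeded all 16 lower ones. The difference over the 3 labels was 0.54 ± 0.05 (95% interval 0.45 to 0.63, adjusted p = 4.28e-19, limma), or 1.45 times, while 32.4% of the 68 other assays were higher. With all samples rescaled to the same total it was 0.13 (adjusted p = 0.132), since the median difference of all assays moved by -0.37, from -0.08 to -0.45. Relative to this median *Rps12* was higher by 0.62 with the deposited values and by 0.58 after rescaling. *Rps25* differed by -0.05 ± 0.05 (95% interval -0.15 to 0.06, adjusted p = 0.454). Fitted by itself, vCA3 had *Rps25* lower in the upper range, by -0.19 ± 0.08 (95% interval -0.36 to -0.03, adjusted p = 0.0531, limma), with 6 of 16 upper samples below all lower ones. In CER and dCA3 it differed by 0.16 ± 0.10 and -0.06 ± 0.10 and did not pass. The test of whether the difference of *Rps25* varied between the 3 labels was not passed (F = 3.86, adjusted p = 0.219), nor was that of *Rps12* (F = 3.54, adjusted p = 0.221) or *Abcf1* (F = 0.85, adjusted p = 0.765), against 2 of 68 assays that passed. Over the 3 labels *Abcf1* differed by -0.21 ± 0.14 (-0.49 to 0.07, adjusted p = 0.182). *Rps25* and *Abcf1* both passed after rescaling, with -0.46 and -0.61, while their distance from the median of all assays was under 0.01 in size for *Rps25* and -0.16 for *Abcf1*. Of the 4 other translation genes, *Rps2* (1.53) and *Mrpl54* (0.26) were higher and *Mknk2* (-0.43) and *Rbm4* (-0.63) lower.

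The question whether the label groups differed was addressed in each region for status (MS minus Co), injection (inject minus naive) and their interaction. None of the 36 tests of the 3 genes in the 12 regions passed for status, injection or interaction (limma, lowest adjusted p 0.730, 0.725 and 0.748), and none had an unadjusted p under 0.05. Of all 828 tests per term, 0% passed for status, 0.121% for injection and 0% for interaction, and 22, 31 and 19 had an unadjusted p under 0.05. The 4 other translation genes gave 0 calls in 48 tests per term, with 0, 1 and 2 at an unadjusted p under 0.05. The study reported *Abcf1* in dCA1 as changed by adult defeat. It also reported *Rps12* and *Rps25* in dDG for the interaction of early and adult exposure. By its account, none of these would remain after correcting for the number of regions as well. Its models held covariates for hidden batches, which the main fit here did not. Its exposures are also not paired with the labels, so the results cannot be compared directly. The intervals show how small a difference could be bounded. In the 9 labels outside Pit, dDG and vDG, the 95% intervals for status lay within -0.43 and 0.33 for *Rps12* and within -0.31 and 0.36 for *Rps25*, on the log2 scale. In Pit, dDG and vDG they were wider and reached from -0.48 to 0.55 for *Rps12*. For *Abcf1* they reached from -1.83 in PVN to 1.60 in PFC, labels that hold samples at 0, and lay between -0.52 and 0.22 in CER and between -0.26 and 0.63 in Pit.

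As shares of the sum of squares on the log2 scale, region labels took 24.0% for *Rps12*, 23.5% for *Rps25* and 10.8% for *Abcf1*. The upper and lower ranges within labels took 44.6, 33.8 and 3.61%, and label groups within labels and ranges 1.71, 2.20 and 3.06%. Most of the spread of *Abcf1* (82.5%) was left between samples of 1 group, a share that includes the 4 samples at 0.

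Signs of the estimates were mixed. Status differences were positive in 6 and negative in 6 of the 12 regions for each of the 3 genes. The estimate of *Rps12* ran from -0.14 in BNST to 0.08 in CER, and that of *Rps25* from -0.10 in BNST to 0.10 in Pit. For injection, both *Rps12* (0.14 ± 0.10 SE) and *Rps25* (0.12 ± 0.09) had their highest estimate in vCA3. There, *Rps12* had medians of 14012 in Co inject (10876 to 18822, n = 8), 12302 in Co naive (9619 to 20725, n = 8), 13331 in MS inject (11545 to 18439, n = 8) and 12677 in MS naive (9099 to 15893, n = 8), and the 4 groups overlapped. The highest status estimate of *Abcf1* was also in vCA3, with 0.40 ± 0.23 (adjusted p = 0.730), where its medians were 109 in Co inject, 114 in Co naive, 109 in MS inject and 159 in MS naive. The lowest was in PVN, with -0.43 ± 0.68, and it became 0.57 ± 0.28 (adjusted p = 0.885) without the 2 PVN samples at 0, both of which were MS.

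**Figure D3:**
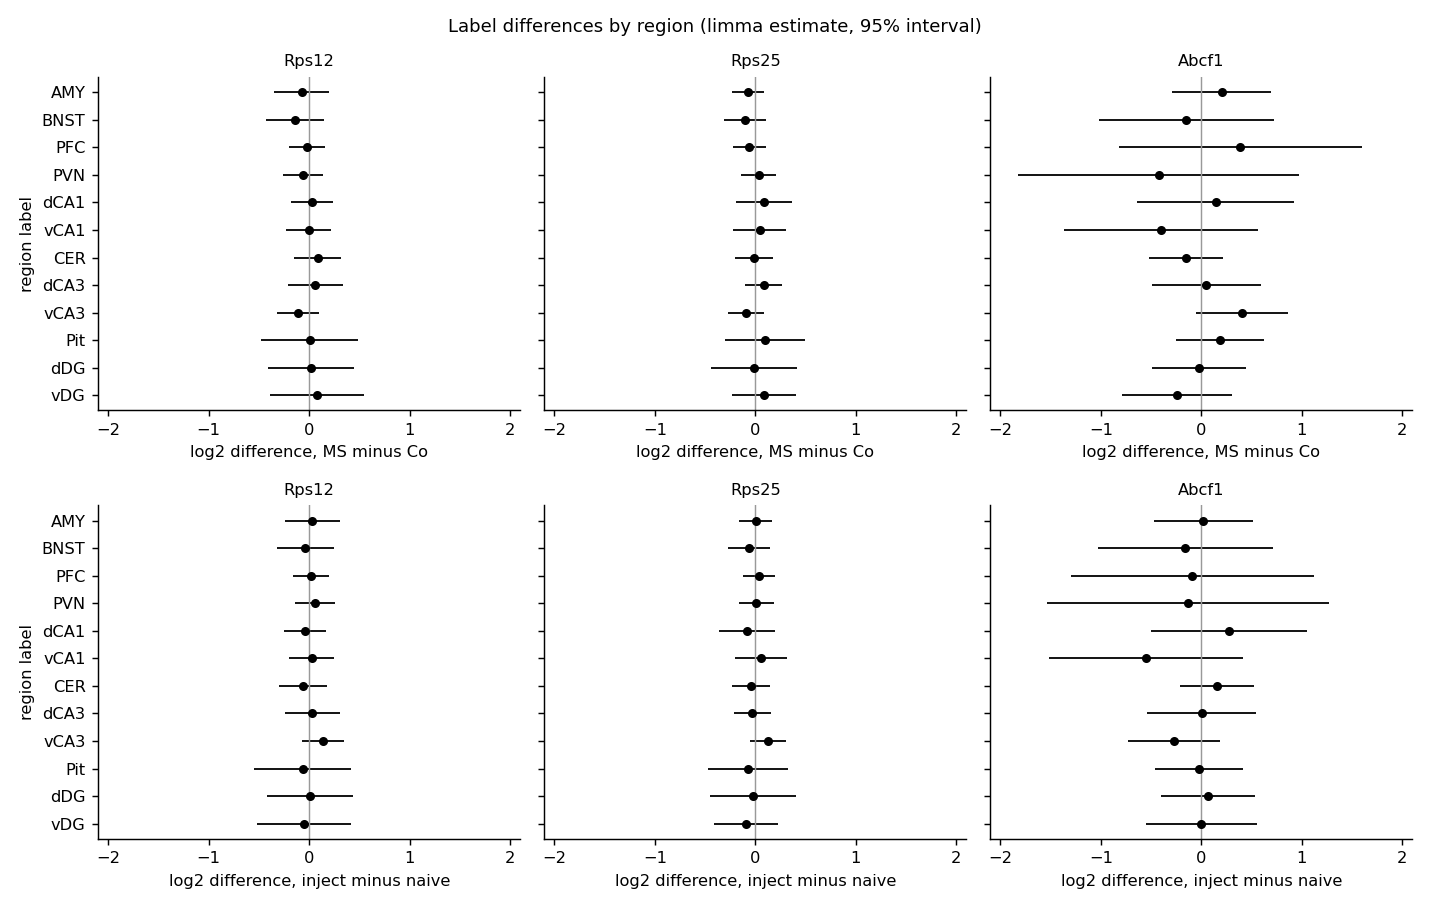
Differences between label groups (log2, horizontal axis) by region label for *Rps12*, *Rps25* and *Abcf1*, with the limma estimate as a point and its 95% interval as a line; the upper row is MS minus Co and the lower row inject minus naive. All intervals include 0, and those of *Abcf1* are the widest, most of all in PVN, PFC and vCA1.

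Averaging each mouse over its regions gave the same picture with narrower intervals. Region-centred means per mouse differed between MS and Co by -0.01 ± 0.04 for *Rps12* (95% interval -0.10 to 0.07), 0.01 ± 0.04 for *Rps25* (-0.07 to 0.08) and -0.01 ± 0.11 for *Abcf1* (-0.24 to 0.22), with 16 mice on each side. For injection the differences were 0.00 ± 0.04 (-0.08 to 0.08), -0.01 ± 0.04 (-0.09 to 0.06) and -0.06 ± 0.11 (-0.29 to 0.17). None of the 9 tests of the 3 genes passed (lowest adjusted p 0.976, limma) and none had an unadjusted p under 0.05, against 0.483% of the 207 tests over all assays that passed. These means were centred by label and not by range, and a mouse held 0 to 3 upper samples of each marker. Over the 6 labels without separate ranges, status differed by -0.05 for *Rps12* (95% interval -0.14 to 0.05) and -0.01 for *Rps25* (-0.10 to 0.08). For *Abcf1* it differed by -0.05 (-0.44 to 0.33). Whether a label difference varied among the 12 regions was tested by 11 interaction terms per gene. Status by region gave F = 0.24, 0.36 and 0.54 for *Rps12*, *Rps25* and *Abcf1* (adjusted p = 1.00 for each), and injection by region F = 0.16, 0.27 and 0.31 (adjusted p = 1.00 for each). Over all assays, 0% passed for status by region and 0% for injection by region, with 2 and 4 of 69 assays, and none of the 3 genes, at an unadjusted p under 0.05.

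*Rps12* and *Rps25* followed each other across mice in most regions. In the 6 labels without separate ranges, Pearson's r of their residuals after removal of label group means was 0.80 in vCA1 (Spearman's rho 0.77, n = 32, adjusted p = 7.20e-05), 0.66 in BNST (rho 0.67, n = 31, adjusted p = 0.000360), 0.58 in dCA1 (rho 0.59, adjusted p = 0.00158), 0.54 in AMY (rho 0.57, adjusted p = 0.00527) and 0.47 in PFC (rho 0.47, adjusted p = 0.0137). In PVN it was 0.18 (rho 0.27, n = 30, adjusted p = 0.470). Over all pairs of assays whose mean value reached 10, 12.5% of the relations in these labels were above 0 with a p as low as those called here, and 23.6% had such a p in either direction. The p-values are from permutation (two-sided, 100000 resamples for the 3 genes and 20000 for all pairs of assays), and those of the 3 genes were adjusted over the 36 relations of 3 gene pairs in 12 labels. Without the 2 samples farthest from the median of *Rps12*, r was 0.73 in vCA1, 0.55 in BNST, 0.42 in dCA1 and 0.54 in AMY, and the relation of PFC (r = 0.32) no longer passed. With all samples rescaled to the same total, AMY no longer passed (r = 0.20, adjusted p = 0.348 by permutation) and PVN did (r = 0.74). These 2016 pairs of assays had an r at least as high in a share of 0.694% in vCA1, 0.546% in BNST, 2.43% in dCA1, 1.88% in AMY, 5.06% in PFC and 31.1% in PVN. All assays of a library share its size factor, and *Rps12* by itself held up to 39.1% of the reads.

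In the 6 labels with separate ranges no r over all samples is given, because it would span 2 clusters. Within the 12 combinations of label and range (7 to 24 samples each), r of *Rps12* and *Rps25* was above 0 in 11, with a median of 0.60, and 8 passed (permutation test, exact for 7 and 8 samples, adjusted over 36 relations). Over all pairs of assays in these combinations, 50.7% were above 0, 15.1% were above 0 with a p as low as those called, and 27.8% had such a p in either direction. In the 8 called combinations, an r at least as high was found in 0.595% (upper samples of Pit) to 19.4% (lower samples of vCA3) of all pairs. The share was 17.3% in the upper samples of dCA3 and 14.9% in those of vCA3. With Spearman's rho 4 passed, and 3 passed without the 2 samples farthest from the median of *Rps12*, namely the upper samples of Pit and the lower samples of vCA3 and vDG. The highest values were 0.95 in the 7 upper samples of vDG, 0.82 in the 16 upper samples of Pit (adjusted p = 0.00162) and 0.78 in the 24 lower samples of vDG (adjusted p = 0.000360). The first of these rested on the library of mouse 83, without which r was 0.28 (rho 0.14, n = 6, unadjusted p = 0.576 by the exact permutation test). The lowest was -0.16 in the 8 lower samples of dCA3.

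**Figure D4:**
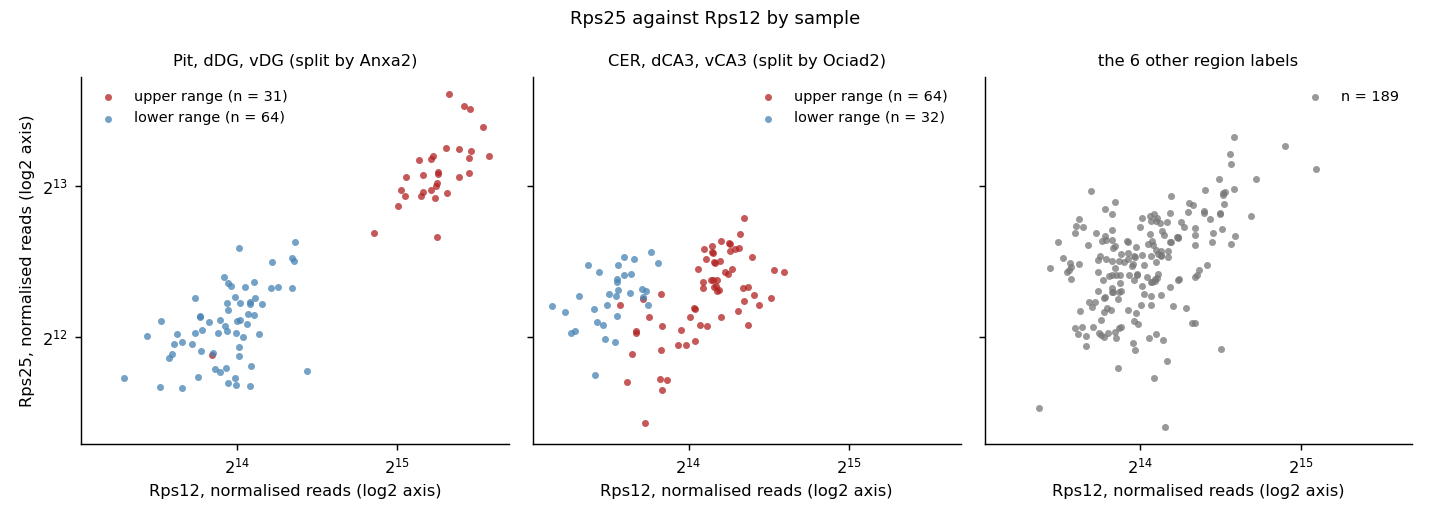
*Rps25* against *Rps12* (normalised reads, both axes log2) in every sample, for the labels divided by *Anxa2*, the labels divided by *Ociad2* and the 6 other labels. In the left panel the upper samples lie apart at high values of both genes, except 1 sample among the lower ones, and in the middle panel the upper samples lie further along the *Rps12* axis while the ranges overlap along the *Rps25* axis.

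The ratio of *Rps12* to *Rps25* values differed by range and label. Its median was 4.47 in the 31 upper samples of *Anxa2* (3.28 to 6.01) and 3.62 in the 64 lower ones (2.68 to 6.33). It was 3.54 in the 64 upper samples of *Ociad2* (2.57 to 4.94) and 2.38 in the 32 lower ones (1.86 to 3.18). Among labels the medians ran from 2.56 in PFC to 4.11 in Pit. The ratio compares samples, since each assay has its own primers, and says nothing about equal amounts of the 2 transcripts.

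*Abcf1* had an r below 0 with *Rps12* in most labels and ranges, and its sign with *Rps25* was mixed. Its r with *Rps12* was below 0 in 6 of the 6 labels without separate ranges, from -0.39 in BNST to -0.11 in PFC, and passed in BNST (rho -0.26, adjusted p = 0.0637, n = 31) and AMY (r = -0.38, rho -0.41, adjusted p = 0.0637, n = 32) by the permutation test. An r at least as low was found in 7.29% of all pairs of assays in BNST and in 6.55% in AMY. Without the 2 samples farthest from the median of *Rps12* neither passed, and after the log2 of the library's reads was also removed, r was -0.02 in BNST and -0.16 in AMY. Without the 4 libraries with *Abcf1* at 0, r was -0.48 in vCA1 and -0.36 in PFC, and 4 labels passed. Within ranges, r was below 0 in 8 of 12 combinations (median -0.38), where 50.7% of all relations were above 0. It was -0.72 and -0.70 in the upper samples of Pit and vCA3 (n = 16 each), -0.66 in the 16 lower samples of vCA3 and -0.62 in the 24 lower samples of vDG, but 0.42 in the 24 lower samples of dDG, and these 5 of 12 passed by the permutation test, beside the 27.8% of all relations given above. In the order named, 0.942, 6.15, 12.7 and 4.32% of all pairs had an r at least as low as the first 4 of these, and 15.7% one at least as high as the last. Only the upper samples of vCA3 (r = -0.68) and the lower samples of vDG (r = -0.51) among them passed without the 2 samples farthest from the median of *Rps12*. With *Rps25*, the relation of *Abcf1* passed in PVN (r = 0.53, rho 0.61, adjusted p = 0.00593 by permutation, n = 30), where r was 0.59 without the 2 samples at 0 and 5.31% of all pairs of assays had an r at least as high. The call of PVN was lost with all samples rescaled to the same total (r = 0.07, adjusted p = 0.746 by permutation), and PFC (r = -0.37) and dCA1 (r = -0.51) passed instead. Within ranges 3 of 12 passed, a share below that of all pairs of assays. There r was 0.70 in the 24 upper samples of CER (adjusted p = 0.00492, permutation) and -0.56 in the 16 upper samples of Pit, of which the second did not pass without the 2 samples farthest from the median of *Rps25* (adjusted p = 0.102, permutation). The third was 0.74 in the 8 lower samples of dCA3 (adjusted p = 0.0893, exact permutation test), and without the 2 farthest samples it turned to -0.36 (adjusted p = 0.590, exact permutation test). The residuals of *Abcf1* and of log2 reads had a median r of 0.45 over the 6 labels, those of *Rps12* -0.24 and those of *Rps25* 0.16, and the part of depth in these relations was not tested further.

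**Figure D5:**
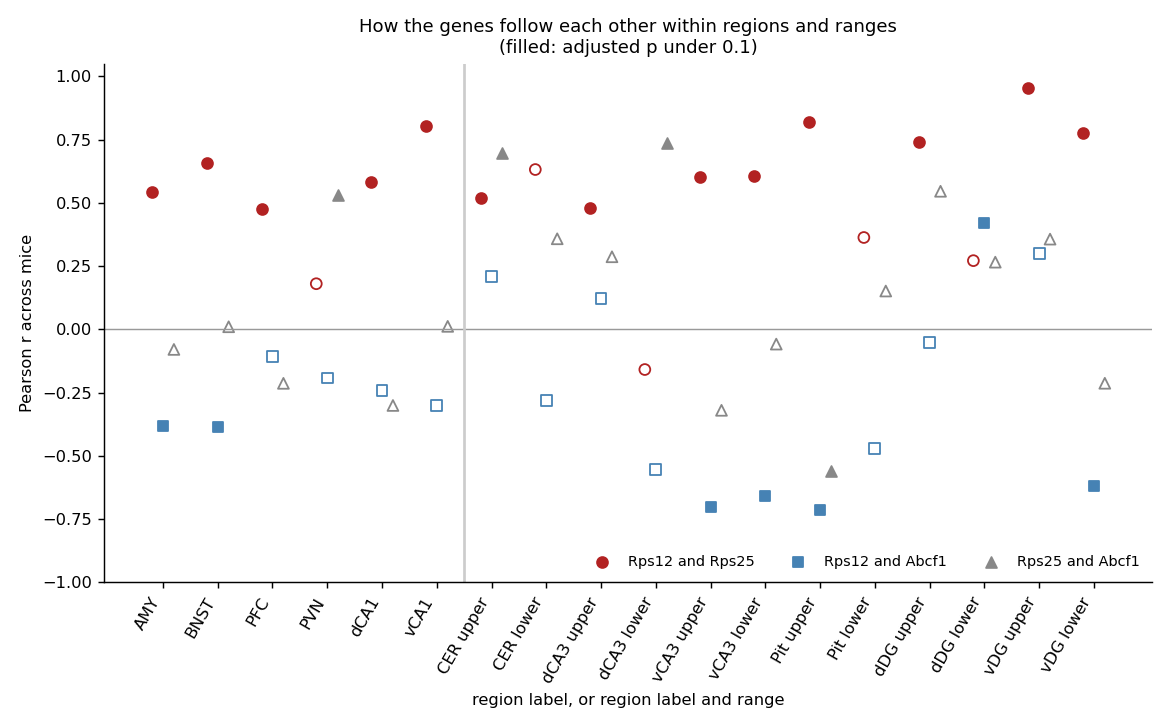
Pearson's r across mice (vertical axis) of the 3 gene pairs in the 6 labels without separate ranges and in the 12 combinations of label and range, filled where the adjusted permutation p is under 0.1. *Rps12* with *Rps25* is above 0 in 17 of the 18 columns, and the pairs with *Abcf1* fall on both sides of 0.

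Among the 51 other assays with a median value of at least 100, the pattern most like *Rps12*, by the median over 12 labels of the within-label r of residuals, was that of *Tmem176a* (0.73), followed by *Commd1* (0.57) and *Rps25* (0.56). For *Rps25* they were *Rps12* (0.56), *Commd1* (0.45) and *Tm2d1* (0.38). For *Abcf1* they were *Polr2i*, a subunit of RNA polymerase II (0.51), *Psmb3*, a subunit of the proteasome (0.50), and *RELA*, a subunit of NF-kB (0.45). These medians include the labels with separate ranges. Over the 6 other labels, the medians of *Tmem176a* and *Commd1* with *Rps12* were 0.47 and 0.46, *Rps25* took the first place for *Rps12* with 0.56, and *Psmb3* the first place for *Abcf1* with 0.50. *Anxa2* (0.51) and *Tm2d1* (0.47) took places 2 and 3 for *Rps12*. With *Abcf1*, *Polr2i* took place 2 (0.47) and *RELA* fell to place 9 (0.33). For *Rps25* over these 6 labels, *Rps12* kept the first place (0.56), *Commd1* fell to place 7 (0.27), and *Anxa2* (0.38) and *Hist1h2al* (0.36) took places 2 and 3.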

How the data were processed

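RNA of micropunches was measured with TruSeq Targeted RNA sequencing on a MiSeq. Per the methods and labels, the authors filtered reads with PRINSEQ lite, checked them with FastQC, aligned them with BWA to the manifest of assays (build mm10 in the submitters' processing notes) and normalised with DESeq2. The deposited values are a signal, namely reads of an assay divided by the size factor of the library. In each library 100% of them were whole multiples of 1 step (26220 values, tolerance 0.01), from which reads were derived for description. The deposited unit is no count, and no count model was run on the derived reads. Here log2(value + 1) of all 69 assays was fitted with limma 3.58.1 (R 4.3.3), with status and injection coded from the labels and Benjamini-Hochberg adjusted p under 0.1, as in the study. The fits were tested on simulated data. Correlations used Python 3.11.15, numpy 2.4.6, pandas 2.3.3 and scipy 1.17.1, and figures matplotlib 3.10.9. Gene spans are of GENCODE and promoters of RefSeq, both on GRCm38.

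The 3 members, the list of other translation genes and the 2 range values were chosen with earlier results of these data known. Named genes are the members, translation genes by symbol, the 3 assays most correlated with each member, and *Anxa2* and *Ociad2*. Samples of 1 group are separate mice by the labels. None of 1316 pairs of samples of a group agreed within sampling noise (chi-square test of reads). Samples of 1 mouse come from the same animal, yet their deviations from group means were hardly correlated across assays (median r 0.01, against 0.00 for different mice of a group). Reads are not independent molecules, so limits from counts cover counting error only.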

Additional observations from a re-analysis of the deposited data

Results flagged for a closer look

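A sample standing apart from the others of its group of region and label group was found in 12 of the 144 groups of the 3 genes, by the gap to its nearest neighbour as a share of the whole range on the log2 scale. Chance alone marks about 1 in 20 groups. For *Rps12* they were the highest samples of PVN MS naive (mouse 91, 20779), vCA3 MS inject (mouse 85, 18439), vDG Co naive (mouse 255, 42807) and vDG MS inject (mouse 99, 36560). The last 3 were upper-range samples of *Ociad2* or *Anxa2*. For *Rps25* they were the lowest samples of BNST MS inject (mouse 81, 4370) and vCA3 MS inject (mouse 83, 2749). For *Abcf1* all 6 were the lowest of their group, namely PFC Co inject (mouse 267, 5.05, from 1 read in a library of 24672), PFC MS naive (mouse 109, 48.7, from 33 reads), and PFC Co naive 239, PVN MS inject 85, PVN MS naive 105 and vCA1 MS inject 99, which were at 0.

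The difference of *Abcf1* between the ranges of *Anxa2* varied between region labels by the test of the difference itself (adjusted p = 4.03e-08, limma), with 0.30 in Pit, 0.89 in dDG and -1.31 in vDG on the log2 scale. Without the vDG library of highest *Anxa2* the adjusted p was 4.16e-07.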

How the results depend on the processing

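The counts of status, injection and interaction calls in the regions and over mouse means were 0 under each pseudocount, filter, scaling, threshold, adjustment and covariate tried (other than the one named next), leaving out each mouse in turn included (0 to 0 calls). With 5 principal components of the residuals as covariates, chosen after seeing the data, 1 test of the members passed for status (*Abcf1* in vCA3), 1 for injection (*Rps12* in vCA3) and 1 for interaction (*Rps12* in vDG), beside 38, 33 and 31 of 828 over all assays. These components are uncorrelated with the label terms by construction and lower only the residual spread. Pairs of region labels called with mouse as a replicate block were 28 for *Rps12*, 36 for *Rps25* and 27 for *Abcf1*, beside 51.2% of all tests. Over the 15 pairs without the 6 labels with separate ranges, 2 were called for *Rps12* (0 of these in the fit of all labels), 9 for *Rps25* (9 of these in the fit of all labels) and 0 for *Abcf1* (4 in the fit of all labels), beside 15.3% of all tests.

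Rescaling to the same total turned the difference of *Abcf1* between *Anxa2* ranges to -0.10, ended the call of *Rps12* between *Ociad2* ranges (0.13), and made calls of *Rps25* (-0.46) and *Abcf1* (-0.61). Single labels, added later, gave 0.89 in dDG and -1.31 in vDG for *Abcf1*, and 0.16 in CER and -0.19 in vCA3 for *Rps25*. The replicate block gave 1.23, 1.00 and 0.20 for the *Anxa2* ranges and 0.54, -0.06 and -0.29 for the *Ociad2* ranges (*Rps12*, *Rps25*, *Abcf1*), and changed no call. Labels with a called correlation of *Rps12* and *Abcf1* (2 of 6) were 1 with Spearman's rho (AMY), 1 after log2 reads (vCA1, r = -0.39, in place of AMY and BNST), 3 after rescaling (AMY at -0.46, BNST at -0.39 and dCA1 at -0.48), 0 without the 2 farthest samples, 0 after the first principal component and 4 without the libraries at 0. For *Rps25* and *Abcf1* (1 of 6) they were 2 with Spearman's rho, after log2 reads and after the first component, where dCA1 (-0.42, -0.43 and -0.43) joined PVN at the opposite sign. They were also 2 after rescaling, where PVN was lost (0.07) and PFC (-0.37) and dCA1 (-0.51) were called. Those of *Rps12* and *Rps25* (5 of 6) numbered 4 to 6 but were not always the same labels. AMY was lost after rescaling (0.20) and PFC after the first component (0.26) and without the 2 farthest samples (0.32), and PVN was gained after rescaling (0.74), after log2 reads (0.45) and after the first component (0.43). The cause of these changes was not tested. Count models, TMM scaling and surrogate variables were planned and not run. At a median of 125 reads, counting error of *Abcf1* was about 0.13 on the log2 scale, beside a spread of 1.10 between samples of a group. That spread includes the 13 samples with fewer than 20 reads, 4 of them at 0, where counting error is larger. By label, the SD was 0.51 in CER, 0.59 in Pit and 0.63 in dDG. It was 1.84 in PVN, 1.64 in PFC and 1.34 in vCA1, the labels with samples at 0.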
